A study of Mus musculus with 6 samples.

Results

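Collagens form the fibrils, networks and filaments of the extracellular matrix. The genes described here are 37 collagen genes and 12 genes for enzymes and a chaperone that process collagen, measured in mouse cumulus granulosa cells, which surround the oocyte. Members were taken by symbol (Col, a number, a, a number, plus Lox, Loxl1, Loxl2, Loxl3, Loxl4, Plod1, Plod2, Plod3, P4ha1, P4ha2, P4ha3 and Serpinh1) where the base mean, the mean normalized read count over both groups, was above 3.3. This gave 49 of the 24982 rows, all 49 of them among the 14835 rows with an adjusted p-value. They comprise 10 fibrillar collagens, 8 basement membrane collagens, 19 other collagens and 12 processing genes. A further 7 collagens fell under the threshold. Just above it stood Col5a3 and Col17a1, with base means of 4.60 and 9.23 in the authors' deposited table. Just under it stood Col28a1 at 3.17 and Col22a1 at 2.57, followed by Col2a1, Col26a1, Col9a1, Col13a1 and Col19a1, which ranged from 1.47 down to 0.207 in the authors' deposited table.

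The cells came from Kun-Ming mice, with no age or further genotype in the labels. Control was represented by 3 libraries (numbers 2, 3 and 4) and Atg5-KD by 3 libraries (numbers 2, 3 and 4). The protocol describes transfection of short hairpin RNAs against Atg5, an autophagy gene, while the treatment of the control cells was not stated in the sources used here. The labels do not state whether libraries of 1 group are separate cultures or animals, so p-values measure the spread between libraries only, and that spread may be technical. The authors' deposited table holds group comparisons and no values per library. Levels of each group given below are therefore estimates, the pair of means that fits the deposited base mean and fold change, and overlap between libraries cannot be given. Differences are read as Atg5-KD over control because the table names the groups in that order, and were the order the other way round each fall below would be a rise. Atg5 gave no check of this, with a log2 fold change of -0.061 ± 0.14 (SE, Wald adjusted p = 0.822) per the authors' deposited table. Its estimated levels were 414 normalized counts in control and 397 in Atg5-KD, and the interval of its log2 fold change ran from -0.34 to 0.21. A knockdown of Atg5 was therefore not visible in this RNA. Library titles call the groups ctr and ko, and Atg5-KD is used here as a label that follows the described treatment.

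Collagen chains wind into a triple helix inside the endoplasmic reticulum, where prolyl and lysyl hydroxylases modify them and the chaperone Serpinh1 holds the helix folded. After secretion the propeptides of fibrillar chains are cut off, fibrils form, and lysyl oxidases cross-link them. In the ovarian follicle a basal lamina rich in type IV collagen separates granulosa cells from the theca, and fibrillar collagens of types I and III are known mainly from theca and stroma.

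Upstream sequence is printed for 3 fibrillar genes that fell, all of the fibrillar members called lower for which the promoter table has an entry. Col1a1 and Col5a2, also called lower, have no entry in it. The sequences are from RefSeq (build GRCm38.p6), read 5′ to 3′ on the plus strand, and end just before the first annotated base of the gene. Capitals mark matches to 3 motifs on either strand. The first motif, CCAAT, is known to be bound by the factor NF-Y. The second motif, TATAAA, is the core promoter box of that name. The third motif, CAGAC, holds core letters recognised by SMAD proteins. The windows lie at chr6:4505368-4505617 for Col1a2, chr1:45311288-45311537 for Col3a1 and chr3:114030290-114030478 for Col11a1.
Col1a2: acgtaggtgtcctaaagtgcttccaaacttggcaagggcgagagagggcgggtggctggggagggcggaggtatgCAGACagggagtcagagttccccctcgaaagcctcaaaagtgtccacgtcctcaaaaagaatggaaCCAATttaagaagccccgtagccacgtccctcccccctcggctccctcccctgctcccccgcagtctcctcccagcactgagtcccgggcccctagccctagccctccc
Col3a1: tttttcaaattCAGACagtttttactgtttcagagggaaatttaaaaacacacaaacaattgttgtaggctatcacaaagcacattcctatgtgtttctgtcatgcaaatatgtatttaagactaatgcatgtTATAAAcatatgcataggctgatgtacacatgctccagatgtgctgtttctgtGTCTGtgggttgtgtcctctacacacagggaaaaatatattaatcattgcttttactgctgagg
Col11a1: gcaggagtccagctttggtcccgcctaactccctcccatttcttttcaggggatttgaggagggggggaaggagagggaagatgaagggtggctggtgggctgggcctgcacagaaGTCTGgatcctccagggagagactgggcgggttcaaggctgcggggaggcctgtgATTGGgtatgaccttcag

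Positions are counted back from the start used in the promoter table. Col1a2 held CCAAT at 109 bases before its start and CAGAC at 175. Col11a1 held the reverse complement of CCAAT at 79 bases and that of CAGAC at 134. In Col3a1 TATAAA stood at 117 bases, with CAGAC further upstream and its reverse complement nearer the start, and no CCAAT was present in this window. The printed Col11a1 sequence is the part of its 250-base window that lies before the annotated gene, 189 bases, and both of its matches lie in that part. The marked letters do not overlap each other in any of the 3 windows. Col27a1, the only member called higher, held the reverse complement of CAGAC at 205 bases, in a window not printed here. Among all 32851 windows of 250 bases, 33.9% held CCAAT, 12.4% TATAAA and 42.2% CAGAC on either strand. Entries were found for 38 of the members, with 40 windows. Of these, 13 held CCAAT, 5 TATAAA and 17 CAGAC. A match describes letters and not a bound site.

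Depth was estimated from rows that hold a single read, and ranged from 16500000 to 17900000 counted reads in control libraries and from 11300000 to 12900000 in Atg5-KD libraries (rounded). The ribosomal RNA locus Rn45s took 1.17% of the estimated reads in control and 17.9% in Atg5-KD. Of 15 listed granulosa and cumulus markers, 6 had a base mean of at least 1000 and 6 one under 100 in the authors' deposited table. The first set held Inha at 30063, Inhba at 24381, Npr2, Nr5a2, Foxl2 and Inhbb. The second set held Fshr at 93.4, Amh at 6.07, Cyp19a1 at 2.34, Tnfaip6, Has2 and Ptx3. Of 14 tested granulosa markers 3 were lower and 3 higher, while 10.5% and 10.4% of all tested genes were. Log2 fold changes of the lower markers were -2.19 ± 0.16 (SE) for Slc38a3, -1.14 ± 0.15 (SE) for Inhbb and -0.49 ± 0.10 (SE) for Foxl2. Those of the higher markers were 0.78 ± 0.16 (SE) for Kitl, 0.62 ± 0.12 (SE) for Nr5a2 and 0.45 ± 0.10 (SE) for Inhba. Markers of some other cell types also moved with the groups. By the deposited Wald test 6 of 8 tested theca and stroma markers, 8 of 9 for smooth muscle and pericytes and 9 of 10 for leukocytes were lower, and none of these was higher. Their summed estimated levels, control against Atg5-KD, were 2127 against 1375, 12598 against 5666 and 2171 against 508 normalized counts. In the smooth muscle and pericyte sums Acta2 held 6128 and 2725 and Tagln 3964 and 1653. In the leukocyte sums Lyz2 held 1476 and 335. Base means were under 100 for 5, 4 and 8 of the 10 markers in these lists. The theca markers Cyp17a1 and Insl3 had base means of 0.131 and 2.40 in the authors' deposited table. Those of the pericyte marker Rgs5 and the leukocyte marker Ptprc were 0.709 and 12.6 there. By the same test no call was made among 8 endothelial, 6 surface epithelium and 5 oocyte markers, of which 1, 1 and 0 had an unadjusted p under 0.05. Among all 14835 tested genes 2357 were lower and 2317 higher at that unadjusted threshold. No listed marker was at 0. The part of these marker shifts in the collagen results was not tested. In bulk RNA, fewer cells of a type and less RNA per cell cannot be told apart.

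Collagen and collagen-processing transcripts were more often lower than higher in Atg5-KD. By the deposited Wald test of the authors (Benjamini-Hochberg adjusted p under 0.05, used for every call below), 24 of the 49 members were lower, 1 was higher and 24 did not pass. Among all 14835 tested genes 10.5% were lower and 10.4% higher. At an unadjusted p under 0.05, 25 of the 49 members were lower and 3 higher, beside 2357 and 2317 of the 14835 tested genes. Those higher were 1 fibrillar collagen, 1 of the other collagens and 1 of the processing genes, with 0 basement membrane collagens. The members' median log2 fold change was -0.40, against 0.0042 over all tested genes. At base means of at least 50, 23 of 38 members were lower, beside 13.3% of all genes at that level. Below, a value with ± SE is a log2 fold change, Atg5-KD over control, a value given for another scaling or trend is that fold change recomputed, and levels are estimated normalized counts, control first.

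Another scaling and a correction for transcript composition moved some calls. Scaling to the sum of all counted reads, with Rn45s kept in, shifts every log2 fold change by -0.30. Rn45s made up 1.17% of that sum in control and 17.9% in Atg5-KD, so the shift carries this difference. The control library of fewest reads had a size factor of 1.26843, with 16335900 estimated reads outside Rn45s. The Atg5-KD library of fewest reads had 0.702649, with 9249680 such reads. Without Rn45s, reads relative to the size factor were therefore close between the groups, and most of the shift comes from this locus. A sum without Rn45s was not used for scaling. With Rn45s in the sum 30 members were lower and 0 higher, beside 38.7% and 3.6% of all tested genes. The median log2 fold change of all genes ran from 0.20 in the fifth of lowest GC content to -0.21 in the fifth of highest. Collagen transcripts had a median GC content of 55.7%, against 50.2% for all tested genes. With a trend on GC content and transcript length removed, 21 members were lower and 3 higher, beside 7.25% and 6.12% of all genes. Length was that of the longest protein-coding transcript. With the length of all exons of a gene instead, 20 members were lower and 5 higher, beside 7.12% and 6.37%. With a fold of at least 1.5 also required, 14 members were lower and 0 higher, beside 4.31% and 4.37%. At an adjusted p under 0.01, 22 members were lower and 1 higher, beside 6.94% and 6.92%.

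**Figure D1:**
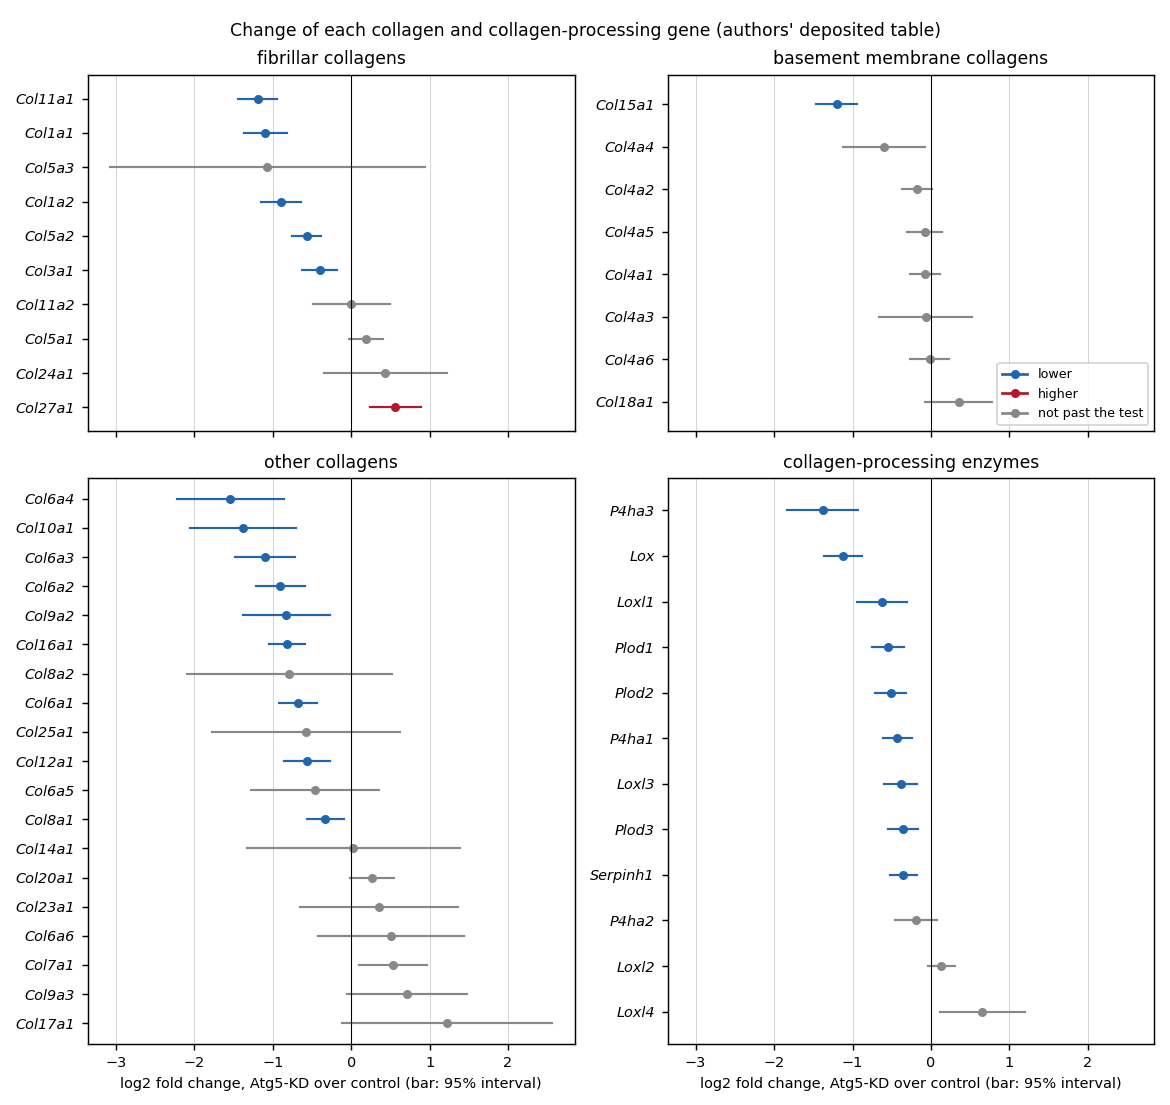
Log2 fold change of each member, Atg5-KD over control, with its 95% interval from the deposited standard error, in 4 panels by role. Blue marks the 24 lower calls, red the 1 higher call (Col27a1, lost when scaled to all reads) and grey the members not past the test. Col4a1, Col4a2, Col4a5 and Col4a6 lie close to 0, and scaling to all reads would add -0.30 to every value on this axis, which takes Col5a1, Col11a2, Col14a1, Col20a1 and Loxl2 from above 0 to below.

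Among the fibrillar collagens, 5 of 10 fell and 1 rose, beside 10.5% and 10.4% of all tested genes. Their median log2 fold change was -0.49. Col11a1, a minor chain that helps to set fibril diameter, had the highest base mean per length of the fibrillar chains. Its estimated levels were 6882 normalized counts in control and 3015 in Atg5-KD, or 898 and 393 per kilobase, above Col5a2 in control (627) and below it in Atg5-KD (423). This is a 2.28-fold fall, at -1.19 ± 0.13 (SE, Wald adjusted p = 1.33e-18) on the log2 scale per the authors' deposited table. Col11a1 is annotated by RefSeq (build GRCm38.p6, as for all coordinates here) as gene 12814, chromosome 3 from 114030479 to 114220756.

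Both chains of type I collagen, the main collagen of connective tissue, fell. Col1a1 (gene 12842, chromosome 11 from 94936224 to 94953042) had estimated levels of 2852 normalized counts in control and 1334 in Atg5-KD, and the authors' deposited table lists -1.10 ± 0.14 (SE, Wald adjusted p = 5.76e-13) on the log2 scale. Col1a2 (gene 12843, chromosome 6 from 4505618 to 4541543) had 2669 normalized counts in control and 1438 in Atg5-KD, with -0.89 ± 0.13 (SE, Wald adjusted p = 1.96e-10) per the authors' deposited table. Per kilobase the estimated ratio of Col1a1 to Col1a2 was 0.963 in control and 0.837 in Atg5-KD. Col3a1, which accompanies type I in pliable tissue, had a smaller fall, with estimated levels of 1814 and 1371 and -0.40 ± 0.11 (SE, Wald adjusted p = 0.00308) per the authors' deposited table.

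Type V collagen takes part in starting fibrils, and its chains gave different calls. Col5a2 had estimated levels of 4153 normalized counts in control and 2805 in Atg5-KD and fell, with -0.57 ± 0.094 (SE, Wald adjusted p = 5.49e-08) per the authors' deposited table. For its partner Col5a1 the levels were 949.9 and 1082, and the authors' deposited table lists 0.19 ± 0.11 (SE, Wald adjusted p = 0.246), with a 95% interval of -0.032 to 0.41. The difference between these chains was not tested. Col5a1 stood at -0.11 when scaled to all reads, and was called higher when the trend with all-exon length was removed (0.31, Wald adjusted p = 0.0445). Per kilobase the estimated ratio of Col5a2 to Col5a1 was 5.55 in control and 3.29 in Atg5-KD.

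Col27a1, a fibrillar chain of cartilage, was the only member called higher as deposited. Estimated levels were 153 normalized counts in control and 227 in Atg5-KD, with 0.56 ± 0.17 (SE, Wald adjusted p = 0.00619) per the authors' deposited table. The Col27a1 call was lost when scaled to all reads (0.26, Wald adjusted p = 0.199). Col11a2 stood at 0.0028 ± 0.25 (SE, Wald adjusted p = 0.996) with a base mean of 67.2 in the authors' deposited table, and at -0.30 when scaled to all reads. Col24a1 at 0.43 ± 0.40 (SE) and Col5a3 at -1.07 ± 1.02 (SE) had base means of 32.0 and 4.60 in the authors' deposited table, and no difference was detectable at this depth.

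Of the 8 basement membrane collagens 1 was lower (12.5%) and 0 higher, near the 10.5% lower among all tested genes, of which 10.4% were higher. Their median log2 fold change was -0.080. Col4a1 and Col4a2, which build the common type IV network, were the most abundant collagens per length in both groups. Col4a1 had estimated levels of 20674 normalized counts in control and 19594 in Atg5-KD, with -0.077 ± 0.098 (SE, Wald adjusted p = 0.646) per the authors' deposited table and a 95% interval of -0.27 to 0.11. Col4a2 had 14155 normalized counts in control and 12522 in Atg5-KD, with -0.18 ± 0.097 (SE, Wald adjusted p = 0.20) per the authors' deposited table and an interval of -0.37 to 0.014. Neither passed the test, and log2 falls as large as those of Col1a1 or Col11a1 lie outside both intervals.

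The other type IV chains did not pass either. Col4a5 and Col4a6, found together in several epithelial basement membranes, stood at -0.082 ± 0.11 (SE) and -0.018 ± 0.13 (SE) per the authors' deposited table. Col4a3 and Col4a4, known from kidney and lung, had base means of 51.7 and 74.4 in the authors' deposited table. Their log2 fold changes there were -0.068 ± 0.30 (SE) and -0.60 ± 0.27 (SE, Wald adjusted p = 0.0990). All 6 type IV values were below 0 as deposited, 1 of them at an unadjusted p under 0.05. Among all 14835 tested genes 7363 were below 0, and 2357 were lower at that unadjusted threshold.

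The multiplexins of the basement membrane zone gave 1 call. Col15a1 (gene 12819, chromosome 4 from 47207655 to 47313167) had estimated levels of 774 normalized counts in control and 337 in Atg5-KD and fell, at -1.20 ± 0.13 (SE, Wald adjusted p = 4.42e-17) per the authors' deposited table. Col18a1, the source of endostatin, had levels of 98.8 and 126, with 0.35 ± 0.22 (SE, Wald adjusted p = 0.270) per the authors' deposited table.

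The basement membrane count depended on the scaling. The sum of all reads takes in Rn45s, 1.17% of it in control and 17.9% in Atg5-KD, and most of the shift comes from this locus. Scaled to all reads, 6 of 8 were lower, beside 38.7% of all tested genes, among them Col4a1 (-0.38, Wald adjusted p = 0.000597) and Col4a2 (-0.48, Wald adjusted p = 8.91e-06). With the GC and length trend removed Col4a4 was lower besides Col15a1 (-0.77, Wald adjusted p = 0.0356). With all-exon length Col4a4 was not called (-0.66, Wald adjusted p = 0.0840), and Col4a1, Col4a2 and Col4a6 turned to 0.053, 0.035 and 0.012, none of them called.

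**Figure D2:**
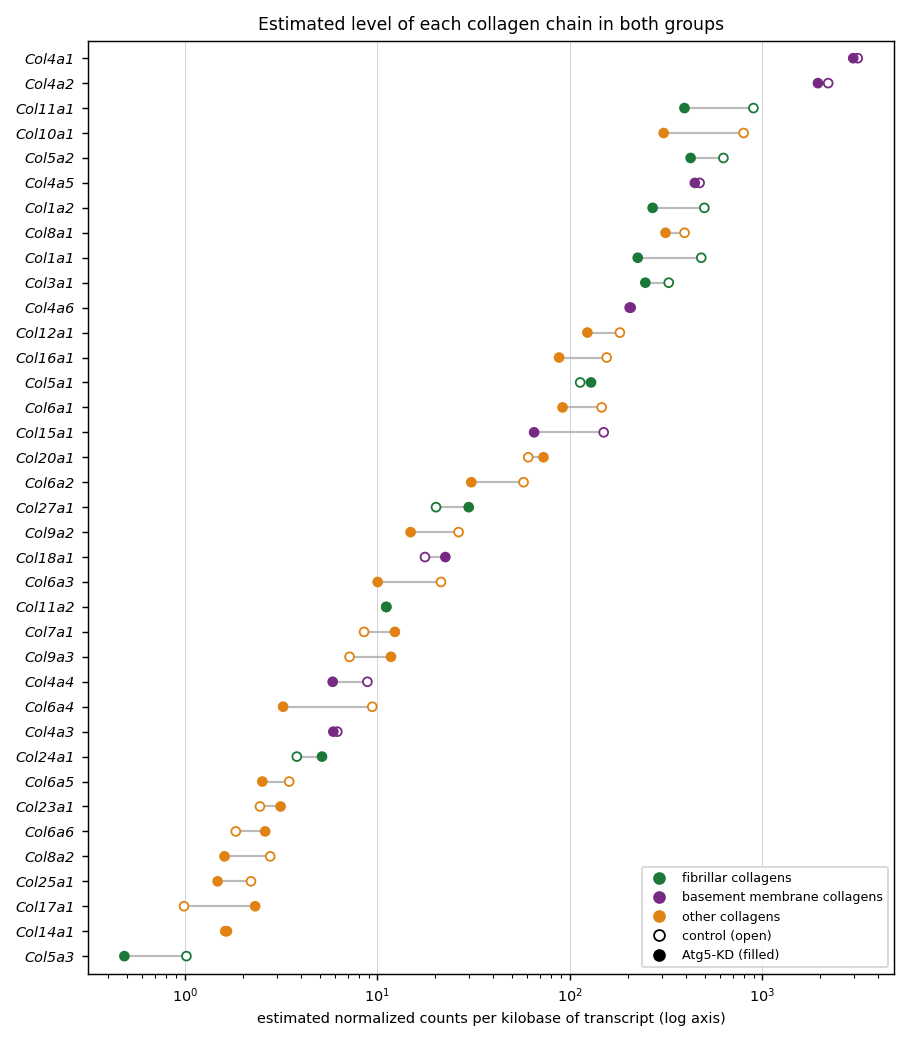
Estimated normalized counts per kilobase of the longest protein-coding transcript (log axis) for the 37 collagens, with open points for control and filled points for Atg5-KD. Col4a1 and Col4a2 stand at the top with points close together, and Col11a1, Col10a1, Col1a1 and Col15a1 have long lines toward lower values. Points carry no spread between libraries, and scaling to all reads would lower each filled point against its open point by 1.23-fold, which turns Col5a1, Col11a2, Col14a1 and Col20a1 to lower values in Atg5-KD.

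Shares of the collagen total were estimated in each group and not tested. Basement membrane chains made up 56.0% of the summed estimated level per kilobase in control and 66.7% in Atg5-KD. Fibrillar chains made up 27.0% and 20.4%, and other collagens 17.0% and 12.9%. With all-exon lengths the basement membrane shares were 61.5% and 71.7%. These shares do not change with the scaling between groups, and have no replicate error. In the order of levels per kilobase Col11a1 went from rank 3 in control to 5 in Atg5-KD, Col10a1 from 4 to 7 and Col4a5 from 8 to 3. If the deposited ratio ran the opposite way, control and Atg5-KD would exchange these shares and ranks, with basement membrane chains at 66.7% in control and 56.0% in Atg5-KD.

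Among the other collagens 9 of 19 fell and 0 rose, beside 10.5% and 10.4% of all tested genes. Their median log2 fold change was -0.56. Type VI chains, which form beaded filaments around cells, fell in 4 of 6 cases. Col6a1 had estimated levels of 599 normalized counts in control and 375 in Atg5-KD, with -0.67 ± 0.12 (SE, Wald adjusted p = 1.25e-06) per the authors' deposited table. Col6a2 had levels of 267 and 143, with -0.90 ± 0.16 (SE, Wald adjusted p = 7.50e-07) per the authors' deposited table. Col6a3, the third chain of the classical filament, had 216 and 101, with -1.09 ± 0.19 (SE, Wald adjusted p = 6.25e-07) per the authors' deposited table. Col6a4, a chain related to Col6a3, had the most negative value of all members called lower, -1.54 ± 0.35 (SE, Wald adjusted p = 0.000156) per the authors' deposited table, from levels of 69.3 and 23.8. Col6a5 at -0.46 ± 0.42 (SE) and Col6a6 at 0.51 ± 0.47 (SE) per the authors' deposited table did not pass, with base means of 27.9 and 19.5.

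Fibril-associated collagens with interrupted helices (FACIT and similar chains) fell in 3 of 6 cases, beside 10.5% of all tested genes. Col16a1 had estimated levels of 808 normalized counts in control and 457 in Atg5-KD, with -0.82 ± 0.12 (SE, Wald adjusted p = 7.95e-11) per the authors' deposited table. Col12a1, which binds type I fibrils, had 2091 and 1418, with -0.56 ± 0.15 (SE, Wald adjusted p = 0.00162) per the authors' deposited table. Col9a2, a cartilage chain, stood at -0.83 ± 0.28 (SE, Wald adjusted p = 0.0204) in the authors' deposited table, from levels of 77.2 and 43.5. The Col9a2 call was lost with the GC and length trend removed (-0.51, Wald adjusted p = 0.274) and at an adjusted p under 0.01. Col9a3 at 0.71 ± 0.39 (SE), Col14a1 at 0.029 ± 0.69 (SE) and Col20a1 at 0.26 ± 0.14 (SE, Wald adjusted p = 0.189) in the authors' deposited table did not pass. Col20a1, with estimated levels of 304 and 365, stood at -0.036 when scaled to all reads, and was called higher with the all-exon trend removed (0.40, Wald adjusted p = 0.0389).

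Of the short-chain network collagens Col10a1 and Col8a1 fell. Col10a1, a marker of hypertrophic cartilage, had estimated levels of 2497 normalized counts in control and 960.1 in Atg5-KD, with -1.38 ± 0.34 (SE, Wald adjusted p = 0.000734) per the authors' deposited table. Its standard error implies a coefficient of variation between libraries of 29.0%, higher than in 99.8% of the 3283 tested genes with a base mean of at least 1000. The median of those genes was 8.46%, and the other 19 members at that level ran from 7.17% to 12.3%. These variation values are solved from the deposited standard errors and are not spreads observed between libraries. Which libraries differ cannot be given. Col8a1, a chain of vessel and corneal membranes, had levels of 2011 and 1602, with -0.33 ± 0.12 (SE, Wald adjusted p = 0.0393) per the authors' deposited table. The Col8a1 call was lost when p-values were adjusted over every row that has one (adjusted p = 0.0508, Wald test) and at an adjusted p under 0.01. Col8a2 stood at -0.79 ± 0.67 (SE) with a base mean of 9.48 in the authors' deposited table.

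No anchoring or membrane-bound collagen was called as deposited. Col7a1, which anchors epithelium to the matrix below it, had levels of 78.8 and 114, with 0.53 ± 0.22 (SE, Wald adjusted p = 0.0655) per the authors' deposited table. It was called higher with the GC and length trend removed (0.63, Wald adjusted p = 0.0327). The transmembrane chains Col17a1, Col23a1 and Col25a1 stood at 1.23 ± 0.68 (SE), 0.36 ± 0.51 (SE) and -0.58 ± 0.61 (SE) per the authors' deposited table, with base means from 9.23 to 15.8.

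**Figure D3:**
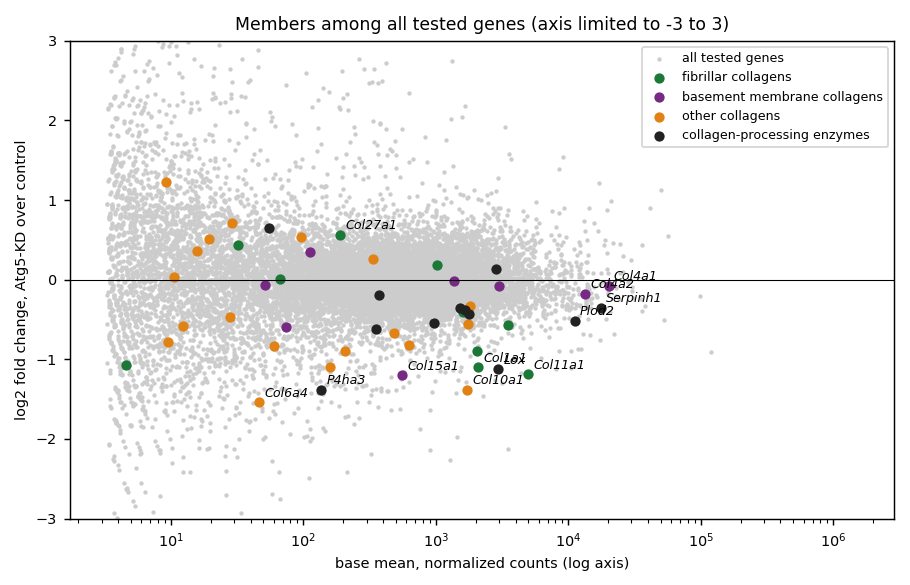
Log2 fold change, Atg5-KD over control, against base mean in normalized counts (log axis) for all 14835 tested genes in grey and the 49 members in colour by role. The vertical axis is limited to -3 to 3, which leaves out 89 tested genes and no member. Col11a1, Col1a1, Col10a1 and Lox lie below -1 at base means above 1000, and Col4a1 and Col4a2 lie near 0, where the all-exon trend turns their sign.

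Processing genes were lower in 9 of 12 cases and higher in 0, beside 10.5% and 10.4% of all tested genes. Their median log2 fold change was -0.41. With the GC and length trend removed 6 were lower and 1 higher, beside 7.25% and 6.12% of all genes. With a fold of at least 1.5 also required 3 were lower and 0 higher, beside 4.31% and 4.37%. P4ha1, P4ha2 and P4ha3 encode catalytic subunits of prolyl 4-hydroxylase, which stabilises the helix. P4ha1 had estimated levels of 2038 normalized counts in control and 1511 in Atg5-KD, with -0.43 ± 0.095 (SE, Wald adjusted p = 9.04e-05) per the authors' deposited table. P4ha3, the least abundant subunit, fell 2.60-fold from 198 to 75.9, at -1.38 ± 0.23 (SE, Wald adjusted p = 8.16e-08) per the authors' deposited table. P4ha2 had levels of 396 and 347 and did not pass, at -0.19 ± 0.14 (SE, Wald adjusted p = 0.362) per the authors' deposited table, and was called lower when scaled to all reads (-0.49, Wald adjusted p = 0.00148).

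All 3 lysyl hydroxylases, whose products prepare lysines for cross-links and sugars, fell, beside 10.5% of all tested genes. Plod2, which acts on the telopeptides, was the most abundant, with 13143 normalized counts in control and 9191 in Atg5-KD and -0.52 ± 0.10 (SE, Wald adjusted p = 7.33e-06) per the authors' deposited table. Plod1 had levels of 1161 and 794, with -0.55 ± 0.10 (SE, Wald adjusted p = 1.74e-06) per the authors' deposited table. Plod3, which also attaches sugars, had 1705 and 1334, with -0.35 ± 0.098 (SE, Wald adjusted p = 0.00282) per the authors' deposited table. The chaperone Serpinh1 (Hsp47) was the most abundant processing gene, with 19693 normalized counts in control and 15419 in Atg5-KD, and fell by 1.28-fold, at -0.35 ± 0.089 (SE, Wald adjusted p = 0.000862) per the authors' deposited table. With the GC and length trend removed, the calls for Serpinh1 (-0.17, Wald adjusted p = 0.247) and Plod3 (-0.17, Wald adjusted p = 0.315) were lost.

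Lysyl oxidases link chains outside the cell, and 3 of 5 fell, beside 10.5% of all tested genes. Lox had estimated levels of 4048 normalized counts in control and 1859 in Atg5-KD, with -1.12 ± 0.12 (SE, Wald adjusted p = 6.59e-18) per the authors' deposited table. Loxl3 had 1891 and 1449.7, with -0.38 ± 0.11 (SE, Wald adjusted p = 0.00325) per the authors' deposited table. Loxl1, known from elastic fibres, had 427 and 278, with -0.62 ± 0.16 (SE, Wald adjusted p = 0.00157) per the authors' deposited table, and its call was lost with the GC and length trend removed (-0.35, Wald adjusted p = 0.154). Loxl2, which acts on type IV collagen, had 2719.5 normalized counts in control and 2977 in Atg5-KD and did not pass, at 0.13 ± 0.087 (SE, Wald adjusted p = 0.316) per the authors' deposited table, with an interval of -0.041 to 0.30. Scaled to all reads Loxl2 turned to a value below 0 (-0.17, Wald adjusted p = 0.109). Loxl4, with a base mean of 55.5, stood at 0.65 ± 0.27 (SE, Wald adjusted p = 0.0722) in the authors' deposited table and was called higher with the GC and length trend removed (0.80, Wald adjusted p = 0.0307).

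**Figure D4:**
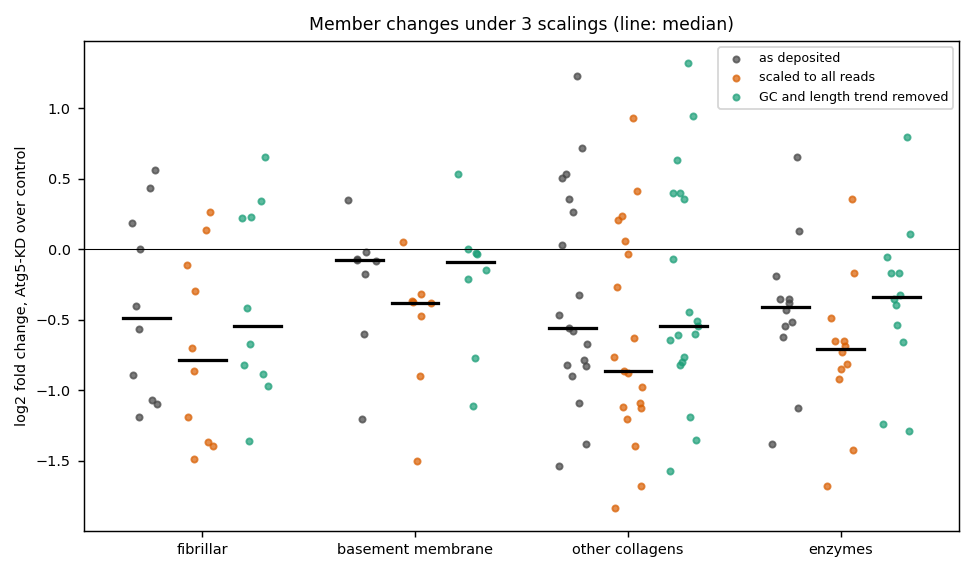
Log2 fold change of each member by role, as deposited (grey), scaled to all reads (orange) and with the GC and length trend removed (green), with a line at each median. Medians as deposited were -0.49, -0.080, -0.56 and -0.41 from left to right. Scaling to all reads moved the basement membrane median to -0.38 and turned Col5a1, Col11a2, Col14a1, Col20a1 and Loxl2 from above 0 to below.

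Other genes of collagen biosynthesis, taken from lists of textbook roles, were lower in 25 of 42 cases and higher in 2 in the authors' deposited table, with a median log2 fold change of -0.39. Among all tested genes 10.5% were lower and 10.4% higher. With the GC and length trend removed, 14 of the 42 were lower and 1 higher, beside 7.25% and 6.12% of all genes. Genes of folding and modification were lower in 9 and higher in 1 of 13. With that trend removed 1 of them was lower and 1 higher, or 7.69% each, near those shares over all genes. Crtap, a partner in prolyl 3-hydroxylation, had levels of 1722 and 1128, with -0.61 ± 0.098 (SE, Wald adjusted p = 1.64e-08) per the authors' deposited table. P3h1, the enzyme of that complex, stood at -0.40 ± 0.092 (SE, Wald adjusted p = 0.000240) and Fkbp10, a prolyl isomerase, at -0.42 ± 0.10 (SE, Wald adjusted p = 0.000586) in the authors' deposited table, and both calls were lost with the trend removed. P3h2, which acts on type IV collagen, had levels of 1986 and 2800.4 and rose, with 0.50 ± 0.11 (SE, Wald adjusted p = 4.72e-05) per the authors' deposited table. The P3h2 call was lost when scaled to all reads (0.20, Wald adjusted p = 0.121). In secretion 0 of 4 were lower and 1 was higher. That gene was Mia2, which helps to export large cargo, at 0.26 ± 0.095 (SE, Wald adjusted p = 0.0288) per the authors' deposited table, and it turned to -0.035 when scaled to all reads.

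Propeptide processing genes were lower in 4 of 8 and higher in 0, beside 10.5% and 10.4% of all tested genes. Adamts2, which removes the amino propeptide, had levels of 897 and 366, with -1.29 ± 0.14 (SE, Wald adjusted p = 7.36e-18) per the authors' deposited table. Bmp1, which removes the carboxy propeptide, had 2778 and 1849.8, with -0.59 ± 0.092 (SE, Wald adjusted p = 7.35e-09) per the authors' deposited table. Adamts14 at -0.92 ± 0.30 (SE, Wald adjusted p = 0.0134) and the enhancer Pcolce at -0.25 ± 0.086 (SE, Wald adjusted p = 0.0195) in the authors' deposited table lost their calls with the GC and length trend removed.

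Fibril-associated regulators were lower in 7 of 10 and higher in 0, beside 10.5% and 10.4% of all tested genes. Fn1, the fibronectin on which collagen assembles, had levels of 16074 and 8778, with -0.87 ± 0.14 (SE, Wald adjusted p = 1.21e-08) per the authors' deposited table. Bgn and Fmod, small proteoglycans that bind fibrils, stood at -0.98 ± 0.13 (SE) and -1.98 ± 0.32 (SE), and Fbln1, a matrix glycoprotein, at -0.83 ± 0.094 (SE) per the authors' deposited table. Lum and Dcn of this list also stand among the stroma markers above. Lum was lower, at -0.65 ± 0.20 (SE, Wald adjusted p = 0.00968) per the authors' deposited table. Dcn did not pass, with levels of 340 and 334 and -0.029 ± 0.14 (SE, Wald adjusted p = 0.919) there. Of the receptors and uptake genes 5 of 7 were lower and 0 higher. The integrin chains Itga11 and Itga2 stood at -1.58 ± 0.21 (SE) and -0.81 ± 0.16 (SE), the receptor kinase Ddr1 at -0.56 ± 0.11 (SE) and the uptake receptor Mrc2 at -1.04 ± 0.24 (SE) per the authors' deposited table.

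**Figure D5:**
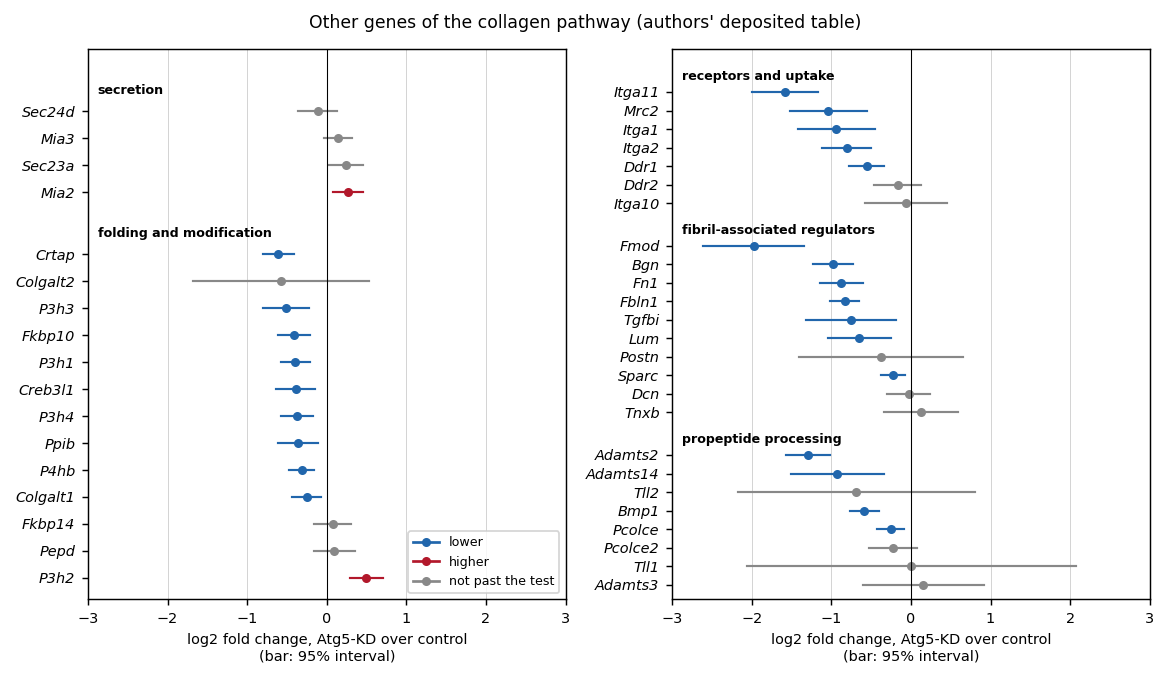
Log2 fold change, Atg5-KD over control, with 95% interval for 42 other genes of the collagen pathway in 5 lists by role. Blue points mark 25 lower calls and red points the 2 higher calls, P3h2 and Mia2. Both higher calls end when scaled to all reads, where Mia2 stands at -0.035.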

How the data were processed

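RNA was measured in 3 control and 3 Atg5-KD libraries. The submitters' processing notes list, with no role or order, STAR, StringTie 2.1.4, DESeq2 1.30.1, featureCounts 1.6.2 and mm10. Protocols in the labels name poly(A) RNA and describe both a NEBNext and a TruePrep kit. Strandedness and the counting annotation were not given in the sources used here.

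The file is the authors' comparison of both groups, with 0 columns per library. Its base means are a signal made by the authors, namely size-factor normalized counts averaged over libraries. The fold changes and standard errors were deposited as log2 values. The deposited Wald statistics are a score, and the deposited p-values and adjusted p-values belong to them. Recomputing these columns from each other gave 0 differences above 1e-06.

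Computed here (Python 3.11.15, numpy 2.4.6, scipy 1.17.1, statsmodels 0.14.6) were group levels, 95% intervals (1.96 standard errors), implied variation, size factors from 974 rows of a single read, and alternatives. These were an adjusted p under 0.01, a fold of at least 1.5, adjustment over the 19241 rows with a p-value, base means of at least 50, scaling to all reads, centring on genes with base means of at least 100, type IV chains alone, and a GC and length trend removed by median regression. GENCODE M21 gave GC content and length for 99.2% of tested rows, and RefSeq GRCm38.p6 gave coordinates and promoters. Length was first taken over all exons. The longest protein-coding transcript replaced it after results with both had been seen, because retained introns lengthened some genes, and the all-exon version was kept as an added alternative. The scripts were tested on simulated data. Given in full were members past the test and the 2 most abundant others in each role, and up to 4 genes per pathway list. Protein features were not analysed here. Members and lists were chosen with earlier results of these data known.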

Additional observations from a re-analysis of the deposited data

How the results depend on the processing

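Of the 24 members called lower, 12 stayed lower under every alternative that held them, and 7 were lost by the fold limit alone. A fold of at least 1.5 left 14 members lower and 0 higher, beside 4.31% and 4.37% of all tested genes, with 3 fibrillar collagens lower and 0 higher, 3 enzymes lower, and 14 other pathway genes lower and 0 higher, which follows from its construction. Scaled to all reads, with Rn45s kept in, 6 basement membrane collagens were lower, beside 38.7% of all tested genes. By that scaling 0 fibrillar collagens, 0 members and 0 other pathway genes were higher, beside 3.6%. Most of the shift of that scaling comes from Rn45s. Among genes given in full, the values that changed sign there were Loxl2 at -0.17, Col5a1 at -0.11, Col11a2 at -0.30, Col20a1 at -0.036 and Mia2 at -0.035, as the constant shift gives. With the GC and length trend removed, 2 basement membrane collagens were lower, and 1 other collagen, 1 enzyme and 3 of all members were higher. Of the other pathway genes 14 were lower and 1 higher. Among all genes 7.25% were lower and 6.12% higher with that trend removed. The all-exon length, the first definition and made an alternative after seeing the data, gave 2 fibrillar collagens, 2 other collagens, 1 enzyme and 5 of all members higher, and 13 other pathway genes lower and 1 higher. It turned Col4a1 to 0.053 and Col4a2 to 0.035. With this length 7.12% of all genes were lower and 6.37% higher. For both trends the cause was not tested. Type IV chains alone gave 0 lower, and an adjusted p under 0.01 left 1 other pathway gene higher. No paired analysis was possible because the table holds no values per library, and leaving out each library and a test on counts were not run for the same reason. Members with base means under 20, such as Col5a3, Col8a2 and Col17a1, had standard errors above 0.4, which limits what could be seen.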

Other observations

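Some members lie next to each other among the protein-coding genes of RefSeq. Col3a1 and Col5a2, 24625 bases apart on chromosome 1, were both lower in the authors' deposited table, and so were Col6a2 and Col6a1, 85162 bases apart on chromosome 10. The divergent pairs Col4a1 with Col4a2, Col4a4 with Col4a3 and Col4a6 with Col4a5 held no call as deposited. The first and second of these pairs overlap by 84 and 113 bases on opposite strands, where reads cannot be told apart without strand. In the run of Col6a6, Col6a5 and Col6a4 on chromosome 9, Col6a4 was lower and the other chains did not pass. Collagen members had a median of 48 exons in the transcript used, from 3 in Col10a1 to 119 in Col7a1, against a median of 8 over all tested genes.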
